A study of Mus musculus with 30 samples.

Results

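The genes of the ATP-binding cassette (ABC) transporter superfamily were followed in hippocampus RNA of 30 male BALB/c mice. Members were the rows of the normalized count table whose Ensembl identifier maps to a mouse symbol of subfamilies A to G and whose sum over the 30 libraries was at least 300. Of 21412 genes in the table, 43 had such a symbol and 37 reached that sum. The other 6 (Abca12, Abca13, Abca17, Abcb11, Abcc12 and Abcg3) fell below it and are not described further. All 37 members had reads in every library, and all 37 still reached 300 when the group in which each was highest was left out. Tap1, Tap2 and Cftr belong to the same superfamily under other names and were read as a separate list.

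Each of 6 groups held 5 mice, and those without added selenium were fed for 11 weeks after arrival at 2 to 3 weeks of age. With and without selenium refer here to the selenium named in the group label. Any selenium content of the base feed is not given in the sources used here. The control feed (Ctr) carried no added methylmercury, the low dose (LD) 0.28 mg mercury per kg feed and the high dose (HD) 5 mg mercury per kg feed, given as methylmercury. Labels put the remaining mice in Se_Ctr, Se_LD and Se_HD, the corresponding feeds with selenium; the series title names selenium-methionine, and the selenium dose and the methylmercury doses, feeding time and age of these 3 groups are not given in the sources used here. No genotype beyond the strain is labelled; for the groups without selenium the methods give a purified diet, methylmercury added with cysteine and single housing. Those methods take 5 hippocampus samples from each of their groups. For the selenium groups nothing states that the samples came from separate mice, so p-values there measure the spread between samples, called mice here. Mice are named by group and by the number in their label, for instance HD mouse 21.

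ABC transporters use ATP to move substrates across membranes, most of them outward from the cytosol. In brain, members of the A and G subfamilies hand cholesterol and phospholipid to apolipoproteins, efflux pumps at the blood-brain barrier keep drugs out of the tissue, and C subfamily members carry organic anions and glutathione conjugates. Glutathione conjugates include those of methylmercury, and other members act as channel subunits, in peroxisomes and mitochondria, or in translation with no transport at all.

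Values are normalized counts, that is reads divided by the size factor of the library. Depth, taken as the reads counted on the genes of the table, ranged from 5768208 to 11510521 per library, with group medians between 7119788 (Ctr) and 10159514 (HD). The least abundant members rested on few reads: Abcc6 had 5 to 26 reads per library, Abca6 5 to 40 and Abcc3 11 to 74. Differences are on the log2(normalized count + 1) scale from limma, with the standard error (SE), and understate the change of such members. A gene was called when the unadjusted p was below 0.05 in the comparison and also in the F test that covers the groups of the fit. Interactions needed the comparison alone. Exact p-values come from two-sided permutation of 5 against 5 mice, which cannot go below 0.00794.

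Some libraries differed in markers of other cells. Summed choroid plexus markers (8 of 8 detected, none at 0 in a group) ranged from 311 to 2369 in 5 mice (Ctr mice 1 and 25, LD mouse 26, Se_LD mice 5 and 23) and from 6315 to 37833 in the other 25. Summed microglia markers (10 of 10 detected) lay between 2614 and 2905 in Ctr, 3307 and 7753 in HD, and 2766 and 3213 in Se_HD. All 10 were called higher in HD against Ctr, where 5.09% of all genes were called in either direction, and HD mice 9 and 21 had the highest sums. Summed astrocyte markers (7 of 7 detected) lay between 48709 and 58192 in Ctr, 58797 and 91263 in HD and 49707 and 52448 in Se_HD, again highest in HD mice 21 and 9; 3 of 7 were called higher in HD. Neuronal and hippocampal markers were present in all groups, and 1 of 5 neuron markers was called lower in HD against Ctr. Summed neuron markers lay between 49995 and 59547 in Ctr and were lowest in HD mice 21 (39168) and 9 (44659), the other HD mice having 52388 to 60416. Fewer cells of a type and less RNA per cell cannot be told apart in bulk tissue.

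Per kilobase of exon, the members spanned 2.59 (Abcc6) to 270.2 (Abce1) normalized counts, with a median of 40.9. The 4 soluble members, Abce1, which recycles ribosomes, and Abcf1, Abcf2 and Abcf3, which act in translation, lay between 135 and 270.2 per kilobase. Among the membrane transporters Abca2, a lipid transporter of myelinating cells, was highest at 212, followed by the peroxisomal fatty acid transporter Abcd3 at 177. The cholesterol exporter Abcg1 (152) and the organic anion transporter Abcc5 (151) came next and their ranges over mice overlapped. At the lower end stood Abca6 (3.29), Abcc3 (5.62) and Abca4 (6.44).

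**Figure D1:**
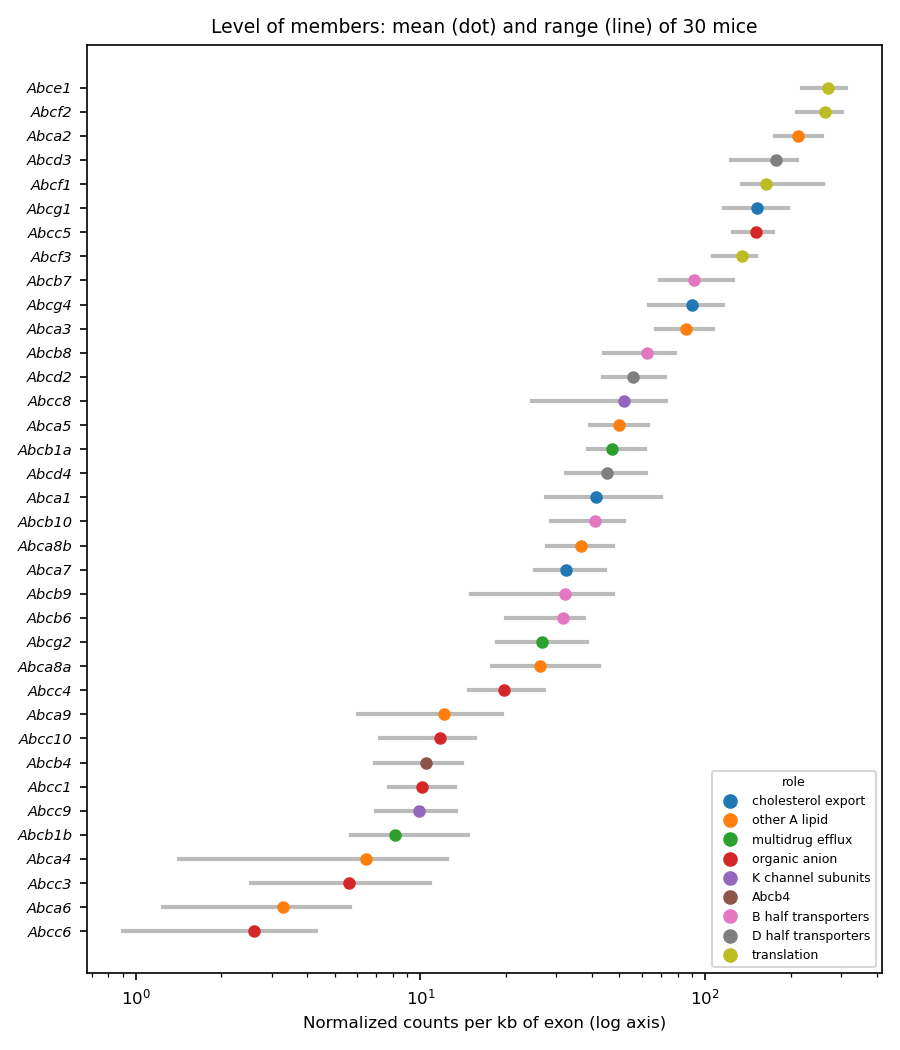
Level of members in normalized counts per kilobase of exon on a log axis, with the mean of 30 mice as a dot coloured by role and the lowest to highest mouse as a line. The members of translation lie in the upper part, and Abcc6 (2.59), Abca6, Abcc3 and Abca4 at the bottom; Abca4 has one of the widest lines.

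The first comparison asks which members differ at the high methylmercury dose without selenium. Abcc3 was called higher in HD, and Abcc8 and Abca5 were called lower. That is 3 of 37 members (8.11%), against 5.09% of 20031 genes called in this comparison. The groups did not overlap for these same 3 members, against 1.71% of genes. None had an adjusted p below 0.05 in limma, where 6 members had an unadjusted p below 0.05 for the comparison itself (against 8.34% of genes), while DESeq2 on the recovered reads placed 1 member, Abcc3, below it and edgeR none. The median difference over the members was -0.0086 and over all genes 0.0067.

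Abcc3, an organic anion and conjugate transporter (ENSMUSG00000020865, NCBIM37 chr11:94204612-94254311, minus strand), had 30.2, 23.0, 30.6, 30.2 and 23.7 normalized counts in the 5 Ctr mice. In the HD mice it had 51.4, 61.7, 40.4, 57.9 and 40.1. Every HD mouse was above every Ctr mouse, and the highest values were those of HD mice 9 and 21, the mice of highest microglia and astrocyte marker sums. The part of these cells was not tested beyond leaving those mice out. The difference was 0.83 (SE 0.21; limma adjusted p = 0.134; exact permutation p = 0.00794). Adjusted p under the other settings with all mice ranged from 0.0220 (DESeq2) to 0.195, and with 1 mouse left out from 0.0791 to 0.343. Without HD mice 9 and 21 the difference was 0.66 and Abcc3 was still called, with an adjusted p of 0.700 in limma. Without the 5 mice of low choroid plexus level the adjusted p was 0.647.

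LD mice had 28.1, 32.4, 20.9, 23.2 and 31.6 normalized counts of Abcc3, overlapping Ctr, and HD was also called above LD (difference 0.86, SE 0.21; limma adjusted p = 0.137). In the selenium groups its levels were 32.3, 27.5, 15.6, 32.8 and 28.7 in Se_Ctr, 25.9, 35.2, 29.3, 14.5 and 29.6 in Se_LD and 28.1, 23.6, 37.2, 30.2 and 44.4 in Se_HD. These groups overlapped one another, and Se_HD exceeded Se_Ctr by 0.26 (SE 0.25; limma adjusted p = 1.00). The interaction of high dose and selenium, -0.58 (SE 0.32), was not called (limma adjusted p = 0.997), but was called without Se_Ctr mouse 16 (-0.76) or Se_HD mouse 30 (-0.69), each with a limma adjusted p of 1.00.

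Abcc8 encodes SUR1, the regulatory subunit of the ATP-sensitive potassium channel of neurons (ENSMUSG00000040136, NCBIM37 chr7:53359893-53435403, minus strand). It had 275, 325, 254, 273 and 274 normalized counts in Ctr and 203, 229, 200.4, 122 and 236 in HD, with the lowest value in HD mouse 21. No HD mouse reached the lowest Ctr mouse (difference -0.53, SE 0.15; limma adjusted p = 0.185; exact permutation p = 0.00794). Leaving out each mouse in turn gave -0.60 to -0.36, and without HD mice 9 and 21 the difference was -0.39; Abcc8 was called in each case. HD mice 21 and 9 also had the lowest neuron marker sums of Ctr and HD, whose part was not tested beyond leaving these mice out. LD mice had 303, 266, 271, 221 and 248, and HD was called below LD by a difference of -0.43 (limma adjusted p = 0.457). This was -0.27 without HD mouse 21 and -0.29 without HD mice 9 and 21, and was called in both cases.

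With selenium Abcc8 had 227, 292, 236, 245 and 361 in Se_Ctr and 233, 239, 291, 280.5 and 248 in Se_HD. The 2 groups overlapped and differed by -0.058 (SE 0.12; limma adjusted p = 1.000; exact permutation p = 0.738). The interaction of high dose and selenium was called, at 0.47 (SE 0.20; limma adjusted p = 0.997). It was lost without HD mouse 21 (0.31), Ctr mouse 7 (0.42) or Se_Ctr mouse 4 (0.41). The alternative regulatory subunit Abcc9 (SUR2, mainly of vessels) had 74.9, 58.8, 68.1, 94.5 and 60.8 normalized counts in Ctr and 74.7, 75.8, 87.4, 89.8 and 65.4 in HD, and differed by 0.15 (SE 0.17; limma adjusted p = 0.882; exact permutation p = 0.325). Of the pore subunits Kcnj8 and Kcnj11, neither was called in HD, while Kcnj11 was called lower in Se_HD against Se_Ctr, at -0.22 (limma adjusted p = 1.00).

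Abca5, a lysosomal lipid transporter (ENSMUSG00000018800, NCBIM37 chr11:110130683-110199030, minus strand), had 579.6, 581, 718, 609 and 668 in Ctr and 522, 467, 572, 487 and 545 in HD. The groups did not overlap, the difference being -0.28 (SE 0.11; limma adjusted p = 0.436; exact permutation p = 0.00794). The call was lost without Ctr mouse 13 (-0.23), Ctr mouse 25 (-0.26) or HD mouse 9 (-0.25), and without HD mice 9 and 21 together (-0.20) or Ctr mice 1 and 25 and LD mouse 26 together (-0.29, F test not passed). It also failed the F test in limma without trend and in the fit of all 30 libraries, at the same difference. Abca5 lies in a cluster of similar A subfamily genes on chromosome 11, so reads could be split among them and its level is uncertain to that extent. In the selenium groups it had 593, 548, 575, 627 and 534 in Se_Ctr and 671, 650.3, 548, 526 and 543 in Se_HD, which overlapped. The interaction with selenium was 0.31 (SE 0.14; limma adjusted p = 0.997). That call was lost without any 1 of 6 mice: Ctr 13 (0.26), Ctr 25 (0.29), HD 9 (0.27), Se_Ctr 28 (0.28), Se_HD 6 (0.26) and Se_HD 12 (0.27).

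**Figure D2:**
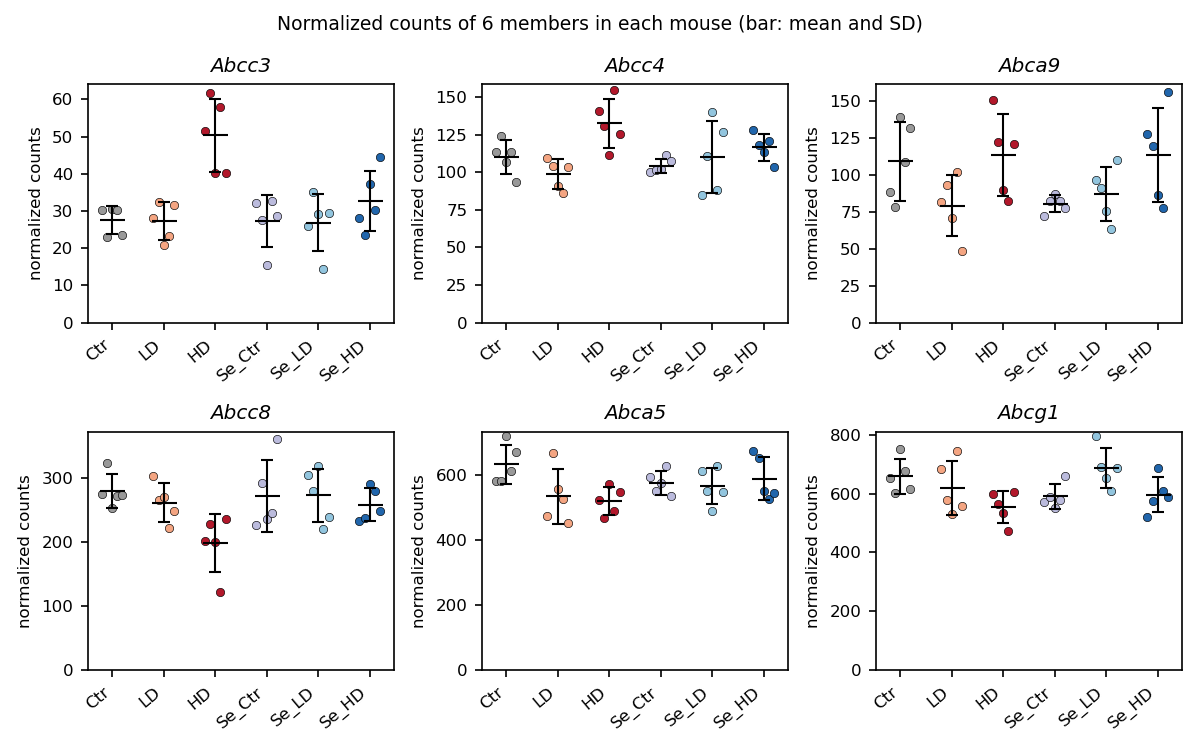
Normalized counts of Abcc3, Abcc4, Abca9, Abcc8, Abca5 and Abcg1 in the 5 mice of each of 6 groups (points), with mean and SD, axes from 0. Abcc3 is highest on average in HD (50.3), whereas Abcc8 lies lowest in HD (198 on average), with 1 mouse at 122.

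Abcc4, an efflux transporter of cyclic nucleotides and conjugates (ENSMUSG00000032849, NCBIM37 chr14:118881914-119105441, minus strand), had 141, 131, 112, 155 and 126 normalized counts in HD. Ctr mice had 114, 124, 107, 113 and 93.5 and LD mice 109.6, 105, 91.0, 86.3 and 104. HD overlapped Ctr and was not called there in the main test (difference 0.26, SE 0.13; limma adjusted p = 0.620; exact permutation p = 0.0476), but every HD mouse was above every LD mouse (difference 0.42, SE 0.13; limma adjusted p = 0.369). Against Ctr it was called by edgeR and DESeq2 (0.27 in both), in limma without trend, in the fit of all 30 libraries, with the filter on the mean, and without Ctr mouse 7 (0.31) or HD mouse 15 (0.32). Without HD mouse 21 the call against LD was lost (difference 0.36), as without HD mice 9 and 21 (0.34). Between HD and LD, 4 members were called against 4.49% of genes: Abcc3, Abcc4 and Abca9 higher and Abcc8 lower. In this comparison edgeR and DESeq2 also called Abca1 higher (0.44 and 0.43), against 5.72% and 4.99% of genes. Abca6 was called lower with a pseudocount of 10 (-0.45), with quantile normalization (-0.81) and in limma without trend (-0.71), against 4.53%, 4.52% and 4.29% of genes. Abcc3 and Abcc4 were the 2 whose groups did not overlap, against 1.34% of genes.

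The regulatory sequence of Abcc4 and of Abca5 is shown because both were called in these comparisons and RefSeq gives a start for them, unlike Abcc3 and Abcc8, for which none was matched; 25 of 37 members matched. The core of the antioxidant response element, TGACNNNGC on either strand, was searched in the 250 bases before to 50 after each start (GRCm38.p6, a later build than that of the gene positions above). It occurs in 12.4% of all 32851 windows and in 6 of 31 windows of members, those of Abca8b, Abcb1a, Abcc4 and Abcc10, the last pair in 2 windows each. The metal response element core was searched as TGCGCNC, held by 15.4% of all windows and by 8 of 31 windows of members, from 8 members. As TGCACNC it was held by 12.6% of all windows and by 5 of 31 windows of members, from 5 members. These last 2 patterns differ at a single letter. Both genes lie on the minus strand, and the windows are printed 5′ to 3′ along the gene, with capitals at the TGACNNNGC match. A match describes the letters of the window and is not a site.
Abcc4, chr14:118706170-118706469: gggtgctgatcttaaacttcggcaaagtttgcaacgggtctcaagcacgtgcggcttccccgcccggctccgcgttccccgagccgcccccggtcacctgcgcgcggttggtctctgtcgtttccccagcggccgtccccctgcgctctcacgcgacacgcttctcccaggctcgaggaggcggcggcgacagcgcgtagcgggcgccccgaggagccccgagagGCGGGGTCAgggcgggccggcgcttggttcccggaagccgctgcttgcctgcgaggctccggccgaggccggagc
Abca5, chr11:110337667-110337966: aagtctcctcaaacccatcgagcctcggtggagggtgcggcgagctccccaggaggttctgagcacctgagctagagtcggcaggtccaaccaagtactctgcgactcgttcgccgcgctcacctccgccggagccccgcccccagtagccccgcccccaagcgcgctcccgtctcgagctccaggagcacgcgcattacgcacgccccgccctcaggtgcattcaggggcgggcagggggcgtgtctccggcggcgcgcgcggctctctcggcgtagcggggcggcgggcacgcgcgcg
The Abcc4 window held 1 match of TGACNNNGC, in its reverse-complement form, and 2 of TGCGCNC, and the Abca5 window no match of TGACNNNGC.

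The cholesterol exporters were not called in HD against Ctr with all mice in the main test. Abca1, which loads apolipoprotein with cholesterol, had 403, 385, 512, 405 and 379.7 normalized counts in Ctr and 562, 486, 343, 726 and 466 in HD. HD mouse 21 was the highest and HD mouse 15 the lowest of all 10, and the groups overlapped (difference 0.27, SE 0.16; limma adjusted p = 0.710). Without HD mouse 21 the difference was 0.14 and without HD mice 9 and 21 0.11, and it was called without Ctr mouse 13 (0.35) or HD mouse 15 (0.41). Abcg1 had 652, 601, 750.4, 677 and 615 in Ctr and 597, 563, 534, 473 and 605 in HD, overlapping by 1 mouse. Its difference was -0.25 (SE 0.11; limma adjusted p = 0.516), and it did not pass the F test, except in the fit of all 30 libraries, where it was called. Abca7 and Abcg4 differed by -0.066 and 0.033.

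Of 19 partners of this export (LXR receptors, apolipoproteins and lipid handling genes), 4 were called higher in HD and none lower, against 5.09% of all genes called in either direction: Npc2 (difference 0.63, adjusted p = 0.0167), Clu (0.59, 0.0550), Apoe (0.48, 0.237) and Soat1 (0.41, 0.468). Microglia and astrocyte markers rose in the same mice (10 of 10 and 3 of 7 called higher) and their part in these differences was not tested. In Se_HD 2 partners were called higher and 1 lower, against 2.06% of all genes.

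Transport of conjugates was covered by 6 members. Besides Abcc3 and Abcc4, Abcc1, the main exporter of glutathione conjugates, had 116, 124, 129, 131 and 105 in Ctr and 131, 118, 125, 149 and 104 in HD, with overlap (difference 0.045, SE 0.14; 95% interval -0.23 to 0.32). Abcc5, Abcc6 and Abcc10 were not called in HD or Se_HD. Of 16 genes of glutathione synthesis, conjugation and the NRF2 response, 3 were called higher in HD, against the same 5.09%: Hmox1 (1.29, adjusted p = 0.0863), Nfe2l2 (0.51, 0.271) and Gstm1 (0.48, 0.0454). In Se_HD Gstm1 (0.32), Nfe2l2 (0.35) and Slc7a11 (0.42) were called higher, with adjusted p of 1.00, against 2.06% of all genes called there.

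None of the 3 efflux pumps of the blood-brain barrier was called in HD or Se_HD. Abcb1a, the main P-glycoprotein of mouse brain capillaries, had 283, 279, 255, 309.9 and 267 in Ctr, 244, 329, 225, 227 and 239 in LD and 307, 337, 258, 228 and 257 in HD, the HD values spanning those of Ctr (difference -0.017; 95% interval -0.26 to 0.23). Se_Ctr had 216, 251, 253, 212 and 233 and lay below every Ctr mouse, a separation that 0.730% of genes had in this comparison. Its difference of -0.26 (SE 0.10; limma adjusted p = 1.00; exact permutation p = 0.00794) was not called, since it did not pass the F test. Abcg2, the second such pump, had 136, 143, 138, 146 and 128 in Ctr and 159.9, 140.0, 96.8, 129 and 129 in HD (difference -0.10, SE 0.14; limma adjusted p = 0.910; exact permutation p = 0.563). Abcb1b, a near copy of Abcb1a with which reads could be shared, differed by 0.093.

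Among the other A subfamily lipid transporters, differences between HD and Ctr ran from -0.70 (Abca6, limma adjusted p = 0.565) to 0.88 (Abca4, adjusted p = 0.667). The 5 mitochondrial and lysosomal members of the B subfamily ran from -0.48 (Abcb9, a lysosomal peptide transporter; limma adjusted p = 0.460) to 0.14 (Abcb6). None of these 4 was called with all mice in the main test. Leaving out 1 mouse called Abcb9 (without Ctr mouse 13, -0.58, or HD mouse 3, -0.53, 9, -0.54, or 15, -0.54), Abca6 (without Ctr mouse 7, -0.80, or HD mouse 9, -0.86) and Abca4 (without Ctr mouse 7, 1.21). Abca4 goes with choroid plexus markers from mouse to mouse, and Ctr mouse 7 had the highest sum of these in Ctr. Their sums averaged 12107 in Ctr (860 to 31453) and 22639 in HD (7076 to 29769), and their part was not tested. Quantile normalization called Abca6 (-0.79) and Abcb9 (-0.49), and a pseudocount of 10 (-0.43) and limma without trend called Abca6. The 4 proteins of translation lay between -0.15 and 0.15. No gene of 12 in peroxisomal oxidation, of 11 in heme and iron-sulfur cluster synthesis, or of Tap1, Tap2 and Cftr was called in HD.

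At the low dose 2 of 37 members were called, both lower, against 1.46% of genes. Abca5 had 472, 666, 555, 524 and 452 in LD (difference -0.25, SE 0.11; limma adjusted p = 0.999; exact permutation p = 0.0635), overlapping Ctr. Abca9, a lipid transporter of the chromosome 11 cluster (ENSMUSG00000041797), had 81.5, 93.3, 71.1, 102 and 48.4 in LD and 88.1, 78.0, 139.5, 109 and 132 in Ctr (difference -0.47, SE 0.21; limma adjusted p = 0.999; exact permutation p = 0.0952). Without Ctr mice 1 and 25 and LD mouse 26, those of low choroid plexus level, neither was called (-0.20 and -0.29), nor was Abca9 in HD against LD (0.36). The Abca5 call was lost without Ctr mouse 13 (-0.20), Ctr mouse 25 (-0.23), LD mouse 2 (-0.21) or LD mouse 26 (-0.19). That of Abca9 was lost without Ctr mouse 13 (-0.37), 19 (-0.46) or 25 (-0.39) or LD mouse 2 (-0.49), 14 (-0.44) or 26 (-0.30). In HD, Abca9 was 151, 122, 90.1, 82.4 and 121, and its call against LD, 0.52, was lost without LD mouse 2 (0.54), 14 (0.50) or 26 (0.36) or HD mouse 3 (0.41), 9 (0.49) or 27 (0.49). Both Abca9 calls were also lost with a pseudocount of 10 (-0.42 in LD against Ctr and 0.47 in HD against LD), with quantile normalization (-0.46 and 0.49), with sets of 6 label numbers as a covariate and in limma without trend. The Abca5 call was lost in limma without trend and in the fit of all 30 libraries, as in HD against Ctr.

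With selenium in the feed, the high dose gave 2 called members, Abca9 higher and Abcb8 lower, against 2.06% of 19679 genes. Abca9 had 72.0, 82.6, 87.3, 82.0 and 78.0 in Se_Ctr, a narrow range, and 128, 119.7, 86.3, 77.4 and 156 in Se_HD (difference 0.45, SE 0.17; limma adjusted p = 1.000; exact permutation p = 0.0794). The groups overlapped. In the same comparison 1 of 7 pericyte and smooth muscle, 3 of 6 meninges, 2 of 9 endothelium and 1 of 7 astrocyte markers were called higher, whose part was not tested. Over 25 mice, Abca9 had r = 0.718 with the summed pericyte and smooth muscle list and r = -0.048 with the meninges list. Over all 30 mice the first was 0.544 (adjusted p = 0.174). These relations were not a test of the difference between Se_HD and Se_Ctr. limma without trend did not call Abca9 or Abcb8, and DESeq2 (-0.18) and the fit of all 30 libraries did not call Abcb8. Abcb8, a subunit of a mitochondrial transporter (ENSMUSG00000028973), had 304, 327, 318, 318 and 306 in Se_Ctr and 247, 271, 296, 297 and 271 in Se_HD. These did not overlap, as in 0.798% of genes (difference -0.19, SE 0.085; limma adjusted p = 1.000; exact permutation p = 0.00794). The Abca9 call was lost without Se_Ctr mouse 4 (0.41), 10 (0.46), 22 (0.46) or 28 (0.44) or Se_HD mouse 6 (0.39), 12 (0.42) or 30 (0.32). That of Abcb8 was lost without Se_Ctr mouse 10 (-0.17), 16 (-0.18) or 22 (-0.18) or Se_HD mouse 6 (-0.15), 12 (-0.18) or 30 (-0.18).

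**Figure D3:**
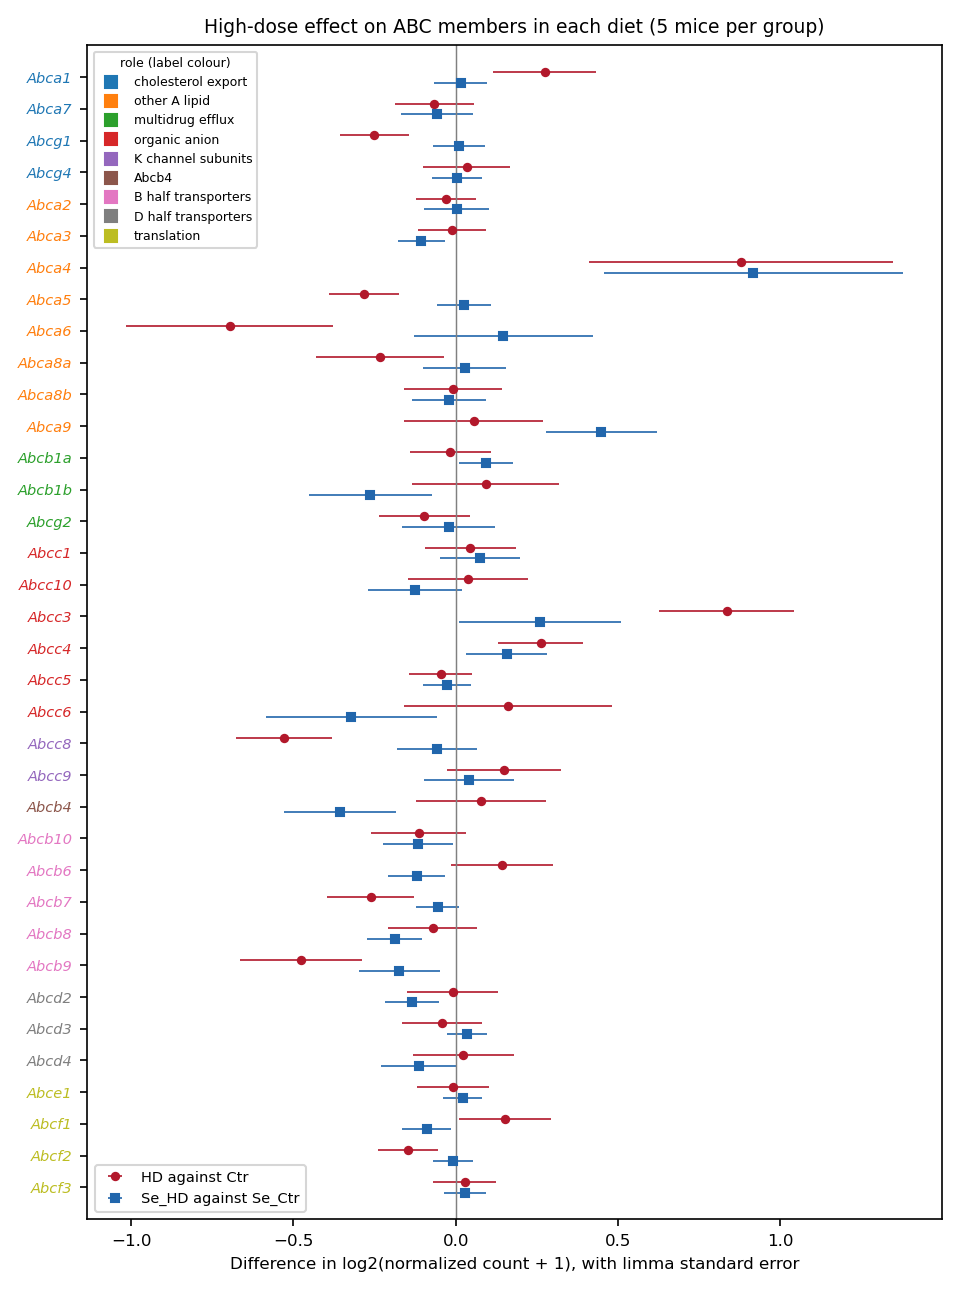
High-dose difference of members without selenium (HD against Ctr, circles) and with selenium (Se_HD against Se_Ctr, squares), in log2(normalized count + 1) with limma SE, members ordered and coloured by role. Abcc3 (0.83) stands to the right and Abcc8 (-0.53) to the left without selenium, at 0.26 and -0.058 with it; Abca4 has wide errors in both.

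At the low dose with selenium, Abcg1 was the 1 member called, higher than in Se_Ctr, against 1.46% of genes. By the comparison alone 2 members passed, against 3.31% of genes. It had 572, 587, 552, 579 and 661 in Se_Ctr and 794, 689, 653, 608 and 688 in Se_LD, with overlap and the highest value in Se_LD mouse 5 (difference 0.21, SE 0.08; limma adjusted p = 1.00). Without that mouse the call was lost (0.16). Without Se_LD mice 5 and 23, those of low choroid plexus level, Abca2, Abca4 and Abca7 were called and Abcg1 was not (0.20), against 4.93% of genes. Abca4 goes with choroid plexus markers, and these mice had its lowest Se_LD values (17.6 and 21.1), so its call follows from the choice of mice. Se_HD was called below Se_LD for Abcg1 (-0.20), Abca7 (-0.28) and Abcb8 (-0.21), 3 members against 2.47% of genes, all with an adjusted p of 0.947. Without Se_LD mice 5 and 23 Abca7 (-0.44) and Abcb8 (-0.31) were still called, Abca2 (-0.26) was called as well and Abcg1 (-0.19) was not, against 4.81% of genes. limma without trend called none of these, nor Abcg1 in Se_LD against Se_Ctr, and the fit of all 30 libraries did not call Abca7 or Abcb8. The Abcg1 call was lost without Se_LD mouse 5 (-0.15) or Se_HD mouse 6 (-0.16), that of Abcb8 without Se_LD mouse 17 (-0.16) or 29 (-0.16) or Se_HD mouse 6 (-0.17), 12 (-0.21) or 30 (-0.21). That of Abca7 was lost without Se_LD mouse 11 (-0.25), 17 (-0.29) or 29 (-0.20) or Se_HD mouse 6 (-0.24) or 12 (-0.24). Abca9 was called higher in Se_HD than in Se_LD by edgeR and DESeq2, with quantile normalization and with sets of 6 label numbers as a covariate (0.36 in each). Leaving out Se_HD mouse 18 (0.44) or 24 (0.48) or Se_LD mouse 5 (0.40) or 29 (0.44) called it too.

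Pooled over both diets, the high dose called 3 members against 4.21% of 21383 genes: Abcc3 (0.55, limma adjusted p = 0.183), Abcc4 (0.21, 0.436) and Abcc8 (-0.29, 0.271). By the comparison alone 6 members passed, against 9.09% of genes. DESeq2 on the recovered reads gave Abcc3 an adjusted p of 0.0445 here and of 0.0129 in HD against LD, where the other settings with all mice ran up to 0.237 and 0.213 and single mice left out up to 0.337 and 0.384. Without HD mice 9 and 21 none of the 3 was called in the pooled high dose. Their differences were then 0.46, 0.17 and -0.23, and the adjusted p of Abcc3 was 0.509 in the pooled high dose and 1.00 in HD against LD. Without the 5 mice of low choroid plexus level these were 0.319 and 0.254. Abcc4 was also lost without HD mouse 3 (0.20), 9 (0.21) or 21 (0.18) alone and, at 0.21, with sets of 6 label numbers as a covariate, and Abcc8 was lost without HD mouse 21 (-0.21). The pooled low dose called no member, against 0.823% of genes. For this comparison limma gave 2 members an unadjusted p below 0.05, against 2.69% of genes, and edgeR and DESeq2 called none. Abca5 was called there without LD mouse 8 (-0.18). Abca4, which goes with choroid plexus markers, was called without the 5 mice of low choroid plexus level (0.74), against 1.42% of genes.

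Selenium itself, pooled over the doses, called no member, against 2.30% of genes; 2 members (Abcb1a and Abcf3) had an unadjusted p below 0.05 for the comparison in limma, against 6.62%, and edgeR and DESeq2 called none. Without methylmercury selenium called none in limma, against 1.30% of genes, with 1 unadjusted (Abcb1a, against 4.00%), and edgeR and DESeq2 each called Abca9 (-0.44 in both), as did limma without Ctr mouse 1 (-0.47) or 7 (-0.52). At the low dose it called none in limma, against 0.730% of genes, with 1 unadjusted (Abcc6, against 2.86%) and none in edgeR or DESeq2. It called Abcg1 without LD mouse 20 (0.23), and Abca7 (0.31) and Abcc4 (0.36) without the 5 mice of low choroid plexus level, against 1.15% of genes. At the high dose it called 2 members against 3.59% of genes. In that comparison 9 of 10 microglia and 4 of 7 astrocyte markers were called lower and 1 of 5 neuron markers higher, whose part was not tested. Abcc3 was lower in Se_HD than in HD (-0.62, SE 0.23; limma adjusted p = 0.390) and Abcc8 higher (0.41, SE 0.14; limma adjusted p = 0.339). These comparisons share the HD mice with those against Ctr. Without HD mice 9 and 21 they gave -0.44 and 0.28, and without HD mouse 21 alone Abcc8 gave 0.25, so the calls were lost.

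As a test of whether the high-dose effect differs between diets, the interaction called 2 members, Abca5 and Abcc8, for which HD against Ctr was -0.28 and -0.53 and Se_HD against Se_Ctr 0.025 and -0.058, against 4.77% of genes. Without HD mice 9 and 21 neither was called (0.23 and 0.33) and 1 other, Abcb4, was. In the same comparison 9 of 10 microglia markers were called lower, and the part of these cells was not tested. The low-dose interaction called 2 members, Abcg1 (0.31, SE 0.13; limma adjusted p = 0.998) and Abca7 (0.37, SE 0.16; limma adjusted p = 0.998), against 3.75% of genes. Abcg1 was lost without Ctr mouse 13 (0.27), LD mouse 14 (0.26) or Se_LD mouse 5 (0.26), and Abca7 without Ctr mouse 7 (0.33), LD mouse 8 (0.31), LD mouse 26 (0.34), Se_Ctr mouse 4 (0.33), Se_LD mouse 11 (0.33) or Se_LD mouse 29 (0.29). Without the 5 mice of low choroid plexus level Abcg1 was lost (0.30), Abca7 was kept (0.49) and Abcc4 was called (0.50), against 3.95% of genes. edgeR and DESeq2 also called Abca9 (0.60 and 0.59), against 3.31% and 2.78% of genes.

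The levels of some members followed those of cell type markers from mouse to mouse. Abca4, a retinoid and lipid transporter best known from the retina (ENSMUSG00000028125), had 16.8 to 21.1 normalized counts in the 5 mice of low choroid plexus marker level and 34.1 to 146 in the other 25. Over those 25 mice, with each group centred, it followed the summed choroid plexus markers with Pearson's r = 0.887 (permutation p = 2e-05) and Spearman's rho = 0.864 (permutation p = 4e-05), and with r = 0.823 when the 2 mice farthest from the median were left out. In all, 185 relations of members with 5 marker lists were computed in these mice, and 6 had an adjusted p below 0.05 (0.00185 for this one). The same 185 were also computed over all 30 mice and adjusted on their own, where 4 had an adjusted p below 0.05. Abca4 also followed the meninges list (r = 0.818, rho = 0.795; adjusted p = 0.00185; without the 2 farthest mice 0.833).

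Abca2 followed the oligodendrocyte markers over all 30 mice, with r = 0.829 (permutation p = 3e-05, adjusted p = 0.00185) and rho = 0.769 (permutation p = 0.00014). Without the 2 farthest mice r was 0.758. Over the 25 mice r was 0.773 (adjusted p = 0.0170), rho 0.629 (adjusted p = 0.108) and r without the 2 farthest mice 0.629. Its group means lay between 1730.5 ± 149 (SD, n = 5) in HD and 1885 ± 289 in Se_LD. Abcg2 followed the endothelial markers over the 25 mice (r = 0.818, adjusted p = 0.00601; rho = 0.670, adjusted p = 0.108), and over all 30 mice the adjusted p was 0.0729 (r = 0.674). Abcf1 ran against them (r = -0.791, rho = -0.704 over 25 mice, adjusted p = 0.00601; r = -0.667 over 30, adjusted p = 0.0495, with rho = -0.533, adjusted p = 0.194, and r = -0.54 without the 2 farthest mice). Abca9 followed the pericyte and smooth muscle markers over the 25 mice (r = 0.718, adjusted p = 0.0281; rho = 0.693, adjusted p = 0.0763; r = 0.59 without the 2 farthest mice), and over all 30 mice r was 0.544 (adjusted p = 0.174). The points share their libraries and their scaling.

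**Figure D4:**
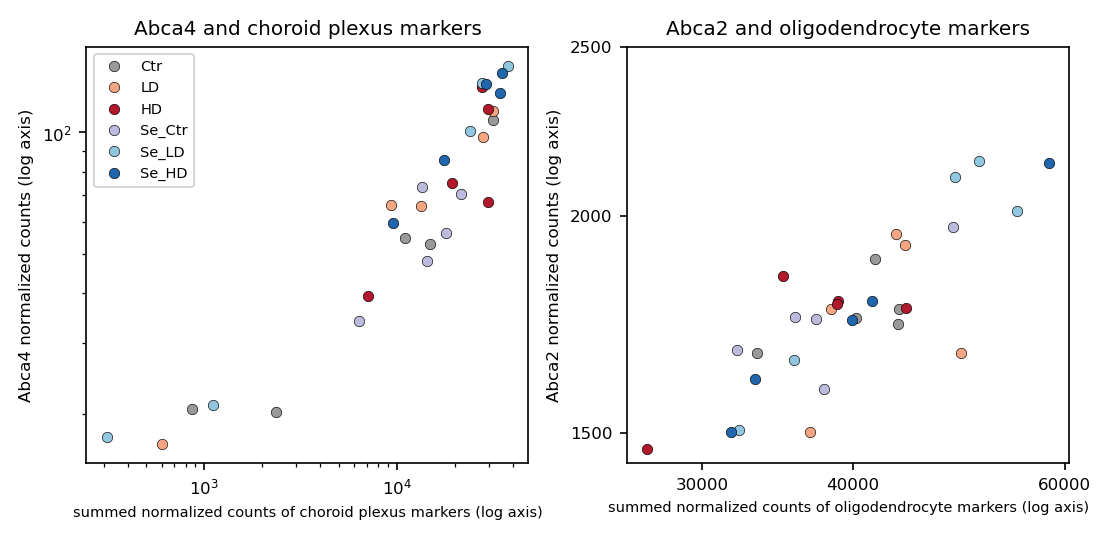
Normalized counts of Abca4 against summed choroid plexus markers (left) and of Abca2 against summed oligodendrocyte markers (right), 30 mice coloured by group as in the legend, all axes logarithmic. The 5 mice of low choroid plexus level stand apart at the lower left with 16.8 to 21.1 counts of Abca4, and within the rest both members go with their markers.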

How the data were processed

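Hippocampus RNA of 30 mice was sequenced as single-end reads from stranded libraries. Per the labels and the methods, the authors trimmed reads with Trim Galore 0.4.2, aligned them with HISAT2 to NCBIM37, counted them with featureCounts and removed genes with few reads in all; the strand setting of the counting is not given in the sources used here. The deposited signal is a table of normalized counts made by the authors with DESeq2, reads divided by the size factor of each library. Whole reads were recovered for 100% of values within 0.01 of a whole number, and all 30 columns were mapped to a sample.

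The main test was limma 3.58.1 (trend) on log2(value + 1), on genes with a sum of at least 10 over the libraries of the fit. Ctr, LD and HD were fitted together, as were the 3 selenium groups, and all 30 libraries for pooled, selenium and interaction comparisons. Adjusted p-values are Benjamini-Hochberg over all genes tested, and intervals are 95%. edgeR 4.0.16 and DESeq2 1.42.0 were run on the recovered reads as alternatives, beside other pseudocounts (0.1 and 10), filters, quantile normalization, sets of 6 consecutive label numbers as a covariate, and leaving out mice. The fits were tested on simulated data. Correlations used 100000 within-group permutations, and 1e-05 is the smallest p they can give. Gene positions and exon lengths come from the NCBIM37 annotation, and 21326 of 21412 identifiers had a symbol.

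Members described by name were those called in a comparison of a dose with its control, of the pooled high dose, of pooled selenium or in the high-dose interaction, plus Abca1, Abcg1, Abcb1a, Abcg2, Abcc1 and Abcc9. A further member that this rule names is not reported here. The members and lists were chosen with earlier results of these data known. Other members given with values, among them Abca4, Abca2, Abcf1, Abca7, Abca6, Abcb9 and Abcb4, are named outside that rule, after their values were seen. Counting gives limits to precision only; p-values measure the spread between single mice. Each group was 1 feed, so any difference of cage or time that went with a feed cannot be told apart from it.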

Additional observations from a re-analysis of the deposited data

Results flagged for a closer look

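In 72 groups of 5 mice, those of the 12 members chosen by the naming rule, 4 had 1 mouse set apart from the others by more than the 95% critical value of Dixon's test, where chance gives about 3.6. Abca1 in Ctr mouse 13 was 512 against 379.7 to 405 in the other Ctr mice (ratio of gap to range 0.807). Abcb1a in LD mouse 8 was 329 against 225 to 244 (0.819), and in Se_HD mouse 30 it was 295 against 230.4 to 247 (0.743). Abcc9 in Se_HD mouse 6 was 52.8 against 68.3 to 73.9 (0.733).

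The interaction of dose and selenium, which compares the dose effect without and with selenium, had an unadjusted p below 0.05 for 4 results, a share near that of all genes, and none passed the adjustment in limma. For the high dose (2 of 37 members, against 4.77% of genes) these were Abca5 (0.31) and Abcc8 (0.47), both with a limma adjusted p of 0.997. For the low dose (2 of 37, against 3.75%) they were Abca7 (0.37) and Abcg1 (0.31), both with a limma adjusted p of 0.998. Each call was lost when 1 of several mice was left out.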

How the results depend on the processing

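Abcc3 and Abcc8 were called in HD against Ctr under each other pseudocount, filter, scaling, model and tool run and with each mouse left out, but not by adjusted p in limma. The number of members called moved more. Counting the comparison alone gave 6 members in HD against Ctr, 2 in Se_LD against Se_Ctr, 6 in the pooled high dose and 2 for pooled selenium, of 37 in each, where 8.34%, 3.31%, 9.09% and 6.62% of all genes passed the same rule. An adjusted p below 0.05 in limma gave 0 in HD, LD, Se_HD and Se_LD against their controls, in the pooled high dose and in the high-dose interaction. The percentages that follow are the share of all genes called under the same setting. Quantile normalization gave 5 in HD (5.16%), 1 in LD (1.41%) and 2 in Se_LD (1.72%). A pseudocount of 10 gave 1 in LD (1.34%). The label number covariate gave 1 in LD (1.41%) and 2 in Se_LD (1.51%). limma without trend gave 0 in LD (1.94%), Se_HD (2.39%) and Se_LD (1.85%). One fit of all 30 libraries gave 1 in LD (1.33%) and 1 in Se_HD (1.03%). edgeR gave 2 in Se_LD (1.61%), and DESeq2 gave 2 in Se_LD (1.12%) and 1 in Se_HD (1.55%). The cause of these shifts was not tested.

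Leaving out each mouse in turn gave 2 to 6 members in HD against Ctr (3.63% to 5.86% of genes), 0 to 2 in LD (1.33% to 1.84%), 0 to 2 in Se_HD (1.65% to 2.84%), 1 to 2 in Se_LD (1.16% to 2.83%), 2 to 5 in the pooled high dose (3.10% to 4.94%), 0 to 1 for pooled selenium (1.93% to 3.38%) and 1 to 4 in the high-dose interaction (4.09% to 6.10%). It gave 3 to 6 in HD against LD (2.93% to 5.45%), 0 to 5 in Se_HD against Se_LD (1.77% to 3.53%), 1 to 4 in Se_HD against HD (2.50% to 4.82%) and 1 to 4 in the low-dose interaction (3.08% to 4.51%). The range was 0 to 1 in the pooled low dose (0.675% to 1.09%), in Se_Ctr against Ctr (1.04% to 1.63%) and in Se_LD against LD (0.652% to 1.08%). The 6 in HD arose without Ctr mouse 7 or HD mouse 15. In alternatives chosen after seeing the data, the members called without HD mice 9 and 21 were 0 in the pooled high dose (2.52%) and 1 in the high-dose interaction (4.35%); without the 5 mice of lowest choroid plexus level they were 0 in LD (1.01%), 3 in Se_LD (4.93%) and 4 in the high-dose interaction (4.28%). Of 37 members, 19 changed the sign of their HD against Ctr difference in at least 1 alternative, 18 of them with 1 mouse left out, all with a difference of at most 0.097 in size. They included Abca9, Abcb8, Abcc1 (-0.015 without HD mice 9 and 21, -0.042 without the 5 mice) and, over single mice left out, Abcb1a (-0.091 to 0.051), Abcc1 (-0.019 to 0.11) and Abcg2 (-0.17 to 0.00634). The widest SE in HD against Ctr were those of Abca4 (0.47), Abcc6 (0.32) and Abca6 (0.32), the latter pair among the members of fewest reads. The labels give no replicate number shared between groups. Their running numbers hold 1 mouse of each group in each set of 6, and nothing says that a set shared a litter, day or batch; with the sets as a covariate, Abca9 was lost in LD against Ctr and in HD against LD and Abcc4 in the pooled high dose, and no other call described was lost.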

Other observations

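Abcb9, the lysosomal peptide transporter, had 275, 235, 163, 236 and 196 normalized counts in Ctr and 183, 186, 188, 87.3 and 166 in HD, with the lowest value in HD mouse 21, which was also the lowest for Abcc8. Abca6, the least abundant A subfamily member, had 15.7, 14.1, 23.8, 20.8 and 23.7 in Ctr and 13.7, 18.3, 6.73, 8.16 and 14.0 in HD. For both the groups overlapped and the F test did not pass. Abcb4, a phosphatidylcholine transporter of bile canaliculi, had 45.5, 39.9, 43.2, 51.6 and 55.6 in Se_Ctr and 33.7, 41.9, 40.9, 38.7 and 28.5 in Se_HD (difference -0.36, SE 0.17; limma adjusted p = 1.000; exact permutation p = 0.0238).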
